A study of Drosophila melanogaster with 2 samples.

Results

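Contacts between 3L and 3R, the arms of chromosome 3, were measured in the pooled Hi-C map of Drosophila Kc167 cells as pairs of 10 kb bins with one bin on each arm. A bin counted when it held at least 1 di-tag anywhere in the raw map, a di-tag being a sequenced fragment that joins ends from a pair of genomic sites. This gave 6799932 bin pairs between 3L and 3R, of 55887203 bin pairs between different arms among 2L, 2R, 3L, 3R and X, and 510120 of the 3L-3R pairs held a di-tag.

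Kc167 is an established line of embryonic origin, here grown in serum-supplemented medium, fixed with formaldehyde and cut with DpnII, an enzyme with a recognition site of 4 bases. The only group was untreated Kc cells in 2 replicates, which the authors combined into a single map on release 5 of the genome. No value below therefore has a spread over replicates, no test between conditions was possible, and the intervals given are 95% intervals for counting error alone. Di-tags of one library share its ligation and amplification, so the spread between libraries can be wider than these intervals.

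Chromosome 3 is metacentric, with 3L and 3R joined at a centromere that lies within repeated heterochromatin. In many Drosophila nuclei the centromeres gather at one side and the telomeres at the other, the Rabl arrangement left by the pull on the centromeres in the last division, and the arms then run side by side. Loci on 3L and 3R at equal distance from the centromere would lie at a like depth of the nucleus in such an arrangement, and in a Hi-C map they would give a ridge where both distances are equal. Contacts of 3L and 3R were set against those of 2L-3R and 2L-3L, which join arms of different chromosomes, and of 2L-2R, the other pair of arms that shares a centromere and was added after the values were seen.

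The centromere lies at the end of 3L and at the start of 3R. Distances were counted from the centromere-side end of each assembled arm, so the heterochromatin between these ends is not included. The assembled arms span 24540 kb on 3L and 27900 kb on 3R, against 23010 kb on 2L. No bin was assigned a gene and no sequence is shown, because a genome of release 5 was not used here.

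Most filled 3L-3R bin pairs held a single di-tag. The arms shared 538387 di-tags, 14.6% of the 3680005 between different large arms and 1.57% of the 34287983 di-tags of the map. Of the bin pairs, 483231 held 1 di-tag, 25598 held 2, 1216 held 3, 67 held 4, 5 held 5, 2 held 6 and 1 held 7. The map between 3L and 3R thus had no bin pair with 10 or more di-tags, the limit above which pairs were left out, whereas 2L-3R had 268 of them with up to 228 di-tags and 2L-3L had 6 with up to 45. At this depth single bin pairs carried little information, and the contacts were summed in steps of 1 Mb along each arm.

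The 3L-3R bin pairs were filled more often than those of the pairs used for comparison. Di-tags occupied 7.50% of the 3L-3R bin pairs, against 6.14% in 2L-3R, 5.69% in 2L-3L and 7.01% in 2L-2R. The mean was 0.0792 di-tags per 3L-3R bin pair, against 0.0657 in 2L-3R, 0.0594 in 2L-3L and 0.0739 in 2L-2R. Raw numbers depend on how readily each bin yields di-tags with any partner. The median total of a bin with arms of other chromosomes was 385 di-tags on 3L and 411 on 3R, against 466 on 2L and 482 on 2R, but bins of chromosome 3 had 6608 such partner bins and those of chromosome 2 had 7450. Per partner bin the median was 0.0583 on 3L and 0.0622 on 3R, against 0.0626 on 2L, 0.0647 on 2R and 0.0628 on X, so 3R was close to the other arms and 3L was the lowest.

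Corrected for these totals, 3L and 3R met more often than arms of different chromosomes and more often than 2L met 2R. Each bin was given a factor fitted to its di-tags with arms of other chromosomes, and the expected count of a bin pair is the product of its factors. The 3L-3R contacts came to 1.47 times their expected number (interval 1.47 to 1.47). The 8 pairs of arms on different chromosomes lay between 0.988 and 1.02, close to 1 because the factors were fitted on them. The value for 2L-2R, which like 3L-3R took no part in the fit, was 1.03 (interval 1.03 to 1.04). The 3L-3R level was thus 1.42 times that of 2L-2R (interval 1.42 to 1.43), although the raw means differed by a ratio of 1.07. With totals that also counted the other arm of the same chromosome the 3L-3R level was 1.18, and in the deposited normalised signal it was 1.13.

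Contacts within the arms of chromosome 3 were also above those within the arms of chromosome 2, with X in between at 10 Mb and close to 3R at 15 Mb. Between loci 10 to 11 Mb apart on one arm, contacts were 3.63 times expected on 3L and 3.18 times on 3R, against 2.34 times on 2L, 2.09 times on 2R and 2.58 times on X. Between loci 15 to 16 Mb apart, they were 2.27 times expected on 3L and 1.94 times on 3R, against 1.33 times on 2L, 1.25 times on 2R and 1.82 times on X. The higher contacts within the arms of chromosome 3 than within those of chromosome 2 move with the difference between 3L-3R and 2L-2R, and their part in it was not tested.

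Contacts across the centromere fell more slowly with separation than contacts within an arm. For 3L-3R the sum of the 2 distances from the centromere-side ends stands for the separation, which leaves out the heterochromatin. At a summed distance of 10 to 11 Mb the 3L-3R contacts were 1.80 times expected (interval 1.77 to 1.84), below the level within 3L and within 3R. At 20 to 21 Mb the 3L-3R contacts were 1.43 times expected (interval 1.41 to 1.45), against 1.52 within 3L (interval 1.47 to 1.57) and 1.41 within 3R (interval 1.38 to 1.45). The interval for 3L-3R overlapped that within 3R and lay just below that within 3L.

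Chromosome 2 was at a lower level at 20 to 21 Mb, with overlapping intervals within and between its arms. The 2L-2R contacts were 0.957 times expected (interval 0.941 to 0.973), against 0.992 within 2L (interval 0.952 to 1.03) and 0.915 within 2R (interval 0.791 to 1.05). Beyond 25 Mb the 3L-3R contacts no longer fell. They were 1.34 times expected at 25 to 26 Mb, 1.33 at 30 to 31 Mb, 1.34 at 35 to 36 Mb and 1.36 at 40 to 41 Mb. The comparison pairs flattened or rose as well. Over the same distances 2L-2R rose from 0.951 to 1.04. Those of 2L-3R lay between 0.918 and 0.951, and those of 2L-3L between 0.908 and 0.951.

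**Figure D1:**
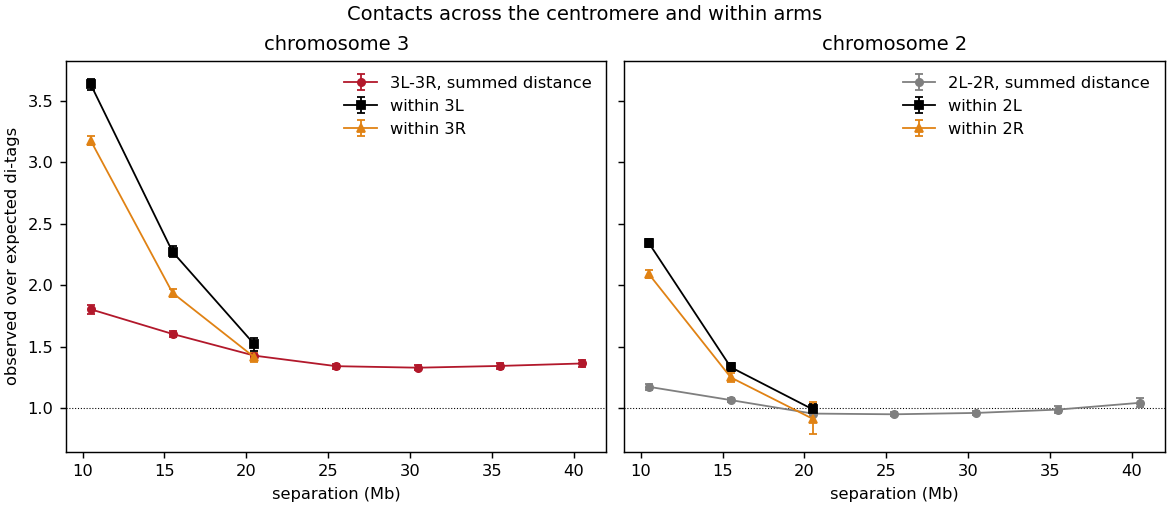
Observed over expected di-tags by separation in Mb on chromosome 3 (left) and chromosome 2 (right), for contacts across the centromere (circles, separation as the summed distance from the centromere-side ends) and within each arm (squares and triangles), with 95% counting intervals. On chromosome 3 the curve across the centromere meets the curves within the arms near 20 Mb and stays between 1.33 and 1.43 from there on. On chromosome 2 the curves meet near 1, and the curve across the centromere stays between 0.951 and 1.04 from there on.

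The map of 1 Mb step pairs showed where on the arms the contacts lay. All 700 step pairs of 3L-3R had at least 50 expected di-tags, with a median of 756 observed, and 687 of them lay above their expected number. Of the 700, 287 reached 1.5 times expected, which is 41% of 3L-3R step pairs. The same share was 0.776% of 644 step pairs in 2L-3R and 0.522% of 575 step pairs in 2L-3L. The limit of 1.5 is close to the 3L-3R level of 1.47 and to the median of its step pairs, 1.43. The levels of 2L-3R and 2L-3L were 0.999 and 0.989, so the gap between these shares goes with the gap between the levels. High 3L-3R values filled a wedge that opened from the centromere along the line of equal distances, with a second, smaller field where both arms end. As 3R is the longer arm, this field lay off that line.

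**Figure D2:**
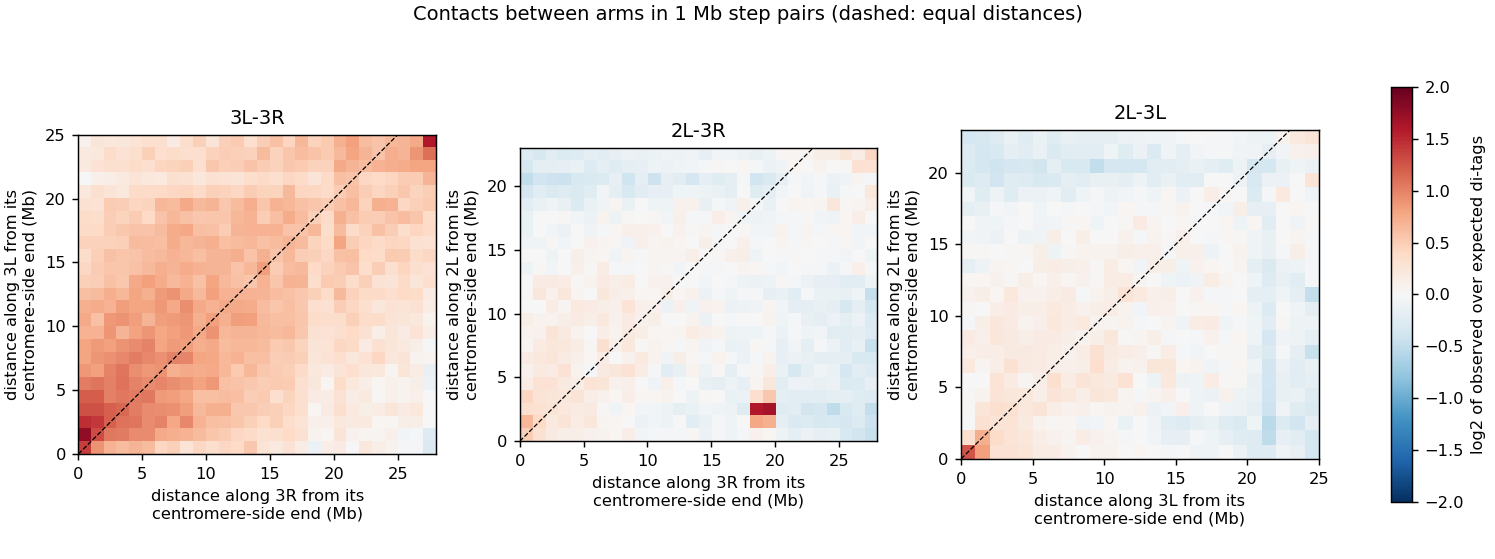
Observed over expected di-tags on a log2 colour scale, cut at 2 on either side of 0, in pairs of 1 Mb steps of 3L-3R, 2L-3R and 2L-3L (left to right), with both axes in Mb from the centromere-side end and the dashed line at equal distances. In 3L-3R 687 of 700 step pairs are above expected. The deepest red is next to the centromere and in the step pair where both arms end, which lies off the dashed line. The maps of 2L-3R and 2L-3L are closer to 1, with higher values near the centromere and at a few other step pairs. Both are below 1 where the innermost part of one arm meets the outermost part of the other. In blocks of up to 5 Mb they go down to 0.809 in 2L-3R and 0.824 in 2L-3L.

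In blocks of 5 Mb, chosen after the map had been seen, the block nearest the centromere on both arms was the highest. It held 30896 di-tags at 2.26 times expected. Along the first 5 Mb of 3L, contacts with 3R were 1.74 times expected at 5 to 10 Mb from the centromere-side end of 3R, 1.44 times at 10 to 15 Mb, 1.18 times at 15 to 20 Mb, 1.11 times at 20 to 25 Mb and 1.02 times beyond 25 Mb. The contacts of the proximal part of 3L thus fell along the whole of 3R.

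For the distal part of 3L the order was turned round. Its blocks beyond 20 Mb were at 1.18 times expected with the first 5 Mb of 3R, 1.28 times at 5 to 10 Mb, 1.36 times at 10 to 15 Mb, 1.38 times at 15 to 20 Mb, 1.52 times at 20 to 25 Mb and 1.65 times beyond 25 Mb. In the middle of 3L, from 10 to 15 Mb, the highest block was at 5 to 10 Mb of 3R with 1.69 times expected, next to 1.64 times at 10 to 15 Mb. Arms of different chromosomes had like gradients at lower levels. Beyond 20 Mb of 2L, contacts rose from 0.818 with the first 5 Mb of 3R to 1.12 beyond 25 Mb. With 3L they rose from 0.824 to 0.957. Along 3R the first 5 Mb of 2L went from 1.22 to 0.809, broken by 1.28 at 15 to 20 Mb.

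At equal distances the 3L-3R contacts were highest next to the centromere and fell over the inner part of the arms. In the first 1 Mb of both arms, 984 di-tags were observed against 376 expected, a ratio of 2.61 (interval 2.45 to 2.78). The ratio was 2.48 at 1 to 2 Mb, 2.30 at 2 to 3 Mb, 2.22 at 3 to 4 Mb, 2.05 at 4 to 5 Mb, 1.92 at 5 to 6 Mb, 1.87 at 6 to 7 Mb, 1.99 at 7 to 8 Mb, 1.79 at 8 to 9 Mb and 1.69 at 9 to 10 Mb. Neighbouring steps had overlapping intervals, whereas those of the first and the tenth step, 2.45 to 2.78 and 1.58 to 1.80, did not overlap.

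Over the outer part the ratios were flatter. They were 1.76 at 10 to 11 Mb, 1.70 at 11 to 12 Mb, 1.62 at 12 to 13 Mb, 1.47 at 13 to 14 Mb, 1.79 at 14 to 15 Mb, 1.48 at 15 to 16 Mb, 1.59 at 16 to 17 Mb and 1.49 at 17 to 18 Mb. Beyond 18 Mb they were 1.40, 1.43, 1.43, 1.49, 1.54 and 1.48 in steps of 1 Mb up to 24 Mb, and 1.59 in the last, incomplete step (interval 1.43 to 1.76). The lowest, 1.40 at 18 to 19 Mb, had an interval whose lower bound was 1.30, and none of the 25 intervals reached down to 1. Of all 3L-3R step pairs 98.1% lay above 1, so this goes with the level of the whole arm pair, 1.47. It is not particular to equal distances.

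Of the 25 step pairs at equal distance in 3L-3R, 17 reached 1.5 times expected, beside the 41% of all 3L-3R step pairs that did. In 2L-3R none of 23 did, beside 0.776% of its step pairs, and its values at equal distance lay between 0.871 and 1.40. In 2L-3L 2 of 23 did, beside 0.522% of its step pairs, and its values lay between 0.794 and 2.39, with 2.39 and 1.65 in the first 2 steps from the centromere. The first step of 3L-3R, at 2.61, thus stood close to that of 2L-3L and below the 4.90 of 2L-2R, whereas the third step of 3L-3R, at 2.30, compared with 1.21 in 2L-3R, 1.21 in 2L-3L and 1.51 in 2L-2R.

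**Figure D3:**
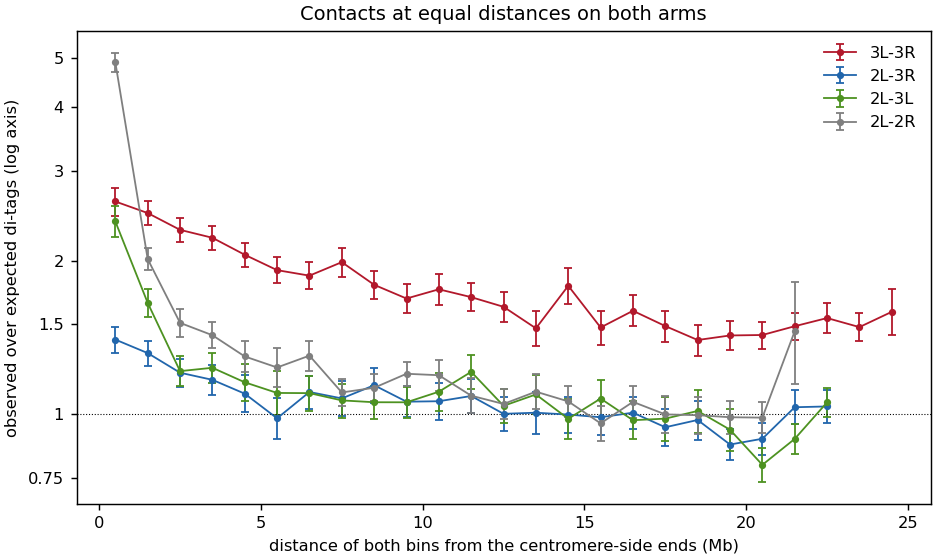
Observed over expected di-tags (log axis) in step pairs at equal distance in Mb from the centromere-side ends of both arms, for 3L-3R, 2L-3R, 2L-3L and 2L-2R, with 95% counting intervals. The 3L-3R values fall to 1.69 at 9 to 10 Mb and stay between 1.40 and 1.79 beyond it, above those of 2L-3R and 2L-3L at every distance.

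The decline with distance and a ridge at equal distances were then separated. The line of equal distances starts in the corner of highest contacts, so each step pair on it was set against step pairs of the same summed distance whose distances differ by 4 to 10 Mb. By this measure, termed here the equal-distance ratio, 3L-3R contacts at equal distance were 1.09 times those off the line (interval 1.07 to 1.11, 20995 di-tags in 23 steps). The ratio was 1.02 in 2L-3R (interval 0.999 to 1.04) and 1.03 in 2L-3L (interval 1.01 to 1.05), and across the 8 pairs of arms on different chromosomes it ranged from 0.989 to 1.03. The 3L-3R ratio was 1.07 times that of 2L-3R (interval 1.05 to 1.10) and 1.06 times that of 2L-3L (interval 1.03 to 1.08).

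A difference between the ridge of 3L-3R and that of 2L-2R, the other arms joined at a centromere, was not detectable. In 2L-2R the ratio was 1.08 (interval 1.07 to 1.10), and the 3L-3R ratio was 1.01 times that value (interval 0.982 to 1.03). In the deposited normalised signal the 3L-3R ratio was 1.01, against 0.966 in 2L-3R and 0.881 in 2L-3L, and with distances counted from the distal ends it was 1.01 in 3L-3R (interval 0.993 to 1.02), against 0.977 in 2L-3R and 1.05 in 2L-3L. An excess of 3L-3R at equal distance over step pairs 4 to 10 Mb off the line was therefore not seen under those settings.

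The excess was broad. Within summed distances of 10 to 40 Mb, 3L-3R contacts relative to step pairs of the same sum were 1.07 where the distances were equal (interval 1.05 to 1.09). They stayed between 1.02 and 1.07 for differences up to 4 Mb in either direction. They were lower where the 3R bin lay farther out, with 0.926 at a difference of 8 Mb, 0.896 at 9 Mb and 0.868 at 10 Mb. Where the 3L bin lay farther out by the same distances they were 1.00, 0.977 and 0.964, so the profile was lopsided. Averaged over all partners, contacts also fell along 3R, from 1.66 in its first step to 1.27 in its last. The profile was not corrected for this fall, so whether the ridge itself was lopsided was not tested.

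The profiles of 2L-3R and 2L-3L were flatter, and that of 2L-2R was close to the 3L-3R profile. The 3L-3R values spanned 0.868 to 1.07 over these differences. In 2L-3R the values lay between 0.948 and 1.03, and in 2L-3L between 0.940 and 1.04. In 2L-2R the value was highest at equal distances, 1.05, and lowest where the 2R bin lay 10 Mb farther out, 0.896, against 0.948 where the 2L bin did.

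**Figure D4:**
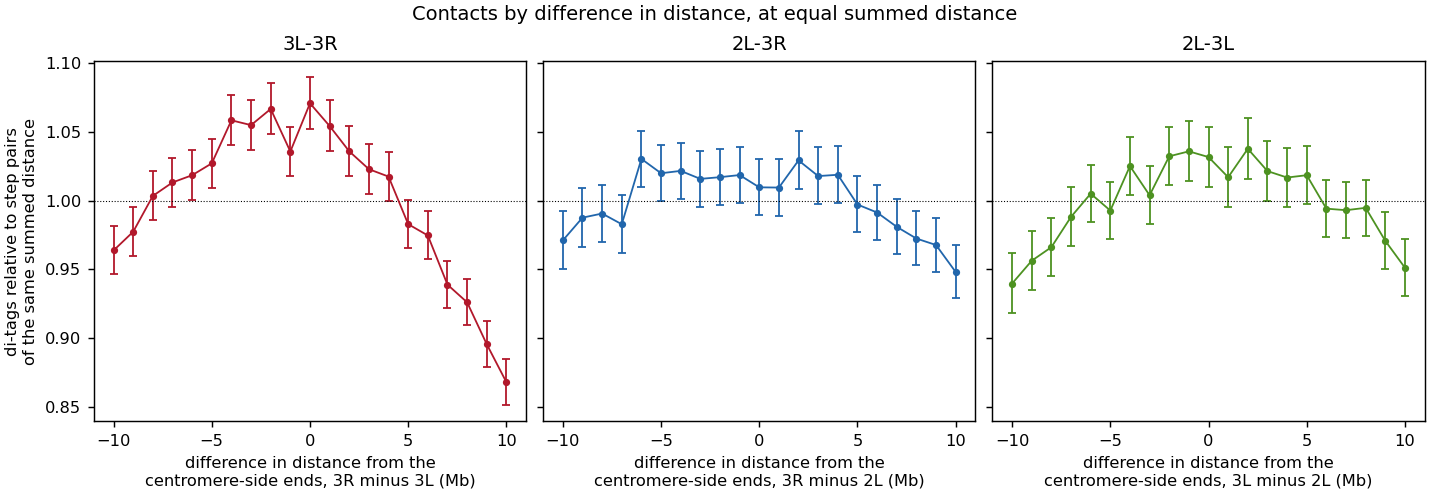
Di-tags relative to step pairs of the same summed distance, by the difference in distance from the centromere-side ends in Mb, for 3L-3R (3R minus 3L), 2L-3R (3R minus 2L) and 2L-3L (3L minus 2L), with 95% counting intervals. The 3L-3R profile reaches 1.07 at 0 and falls to 0.868 at a difference of 10 Mb, whereas 2L-3R and 2L-3L stay between 0.940 and 1.04.

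No narrow line of contacts was found at equal distances from the centromere-side ends. The heterochromatin between these ends is left out. A difference of 0 therefore need not be an equal distance from the centromere itself. With steps of 100 kb and summed distances of 6 to 40 Mb, contacts at a difference of 0 were 1.74 times expected in 3L-3R (interval 1.65 to 1.83, 1541 di-tags). The 40 other differences up to 2 Mb had a median of 1.70 and a highest value of 1.84, and 8 of them were above the value at 0. In 2L-3R the value at 0 was 1.04 (interval 0.978 to 1.10) and 20 of the 40 others were above it, and in 2L-3L it was 1.02 (interval 0.953 to 1.08) and 38 of the 40 were above it.

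The fall of 3L-3R contacts off the line of equal distances was seen at each summed distance. Where the sum was under 10 Mb, step pairs whose distances differed by under 2 Mb were at 2.28 times expected and those that differed by 6 to 10 Mb at 1.66 times. Where the sum was 10 to 20 Mb, contacts were 1.82 times expected for differences under 2 Mb, 1.63 times for 6 to 10 Mb and 1.38 times beyond. Where the sum was 20 to 30 Mb, the values were 1.62, 1.48 and 1.22 times expected in the same order of differences. Contacts fell off the line in the comparison pairs as well, and at this sum the values were 1.02, 0.995 and 0.953 in 2L-3R, 1.07, 1.01 and 0.876 in 2L-3L, and 1.08, 1.00 and 0.851 in 2L-2R. The last 2L-3R value takes in part of a field of higher contacts between the first 5 Mb of 2L and 15 to 20 Mb of 3R, at 1.28 times expected. Over all sums, 2L-3R contacts were 1.07 and 1.15 at differences of 16 and 17 Mb, against 0.943 at 15 Mb.

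The outer part of the arms had the same order with smaller gaps. Where the sum was 30 to 40 Mb, contacts were 1.47 times expected for differences under 2 Mb, 1.39 times for 6 to 10 Mb and 1.23 times beyond. Where the sum exceeded 40 Mb, they were 1.52, 1.43 and 1.28 times expected. At differences of 2 to 6 Mb the value there was 1.54, and its interval of 1.52 to 1.55 overlapped that for differences under 2 Mb.

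Both ends of the arms met above the mean of the map. Within 3 Mb of the centromere-side ends on both arms, 3L-3R contacts were 2.50 times expected (interval 2.45 to 2.54, 11262 di-tags). The same corner was at 1.29 times expected in 2L-3R (interval 1.26 to 1.31), 1.41 in 2L-3L (interval 1.37 to 1.44) and 1.97 in 2L-2R (interval 1.93 to 2.01). In the deposited normalised signal the order of 3L-3R and 2L-3L turned round, with 2.48 in 3L-3R, 1.36 in 2L-3R and 2.67 in 2L-3L. Relative to the level of the whole arm pair, 1.47 in 3L-3R and 1.03 in 2L-2R, the corner of 3L-3R stood out less than that of 2L-2R.

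Within 3 Mb of both distal ends, 3L-3R contacts were 1.82 times expected (interval 1.78 to 1.86, 8726 di-tags), against 1.11 in 2L-3R (interval 1.08 to 1.14) and 1.02 in 2L-3L (interval 0.996 to 1.04). Among the 8 pairs of arms on different chromosomes the distal corner ranged from 1.02 to 1.54, lowest in 2L-3L and 2L-3R and highest in 3R-X. The level of the whole arm pair was 1.47 in 3L-3R and 0.988 to 1.02 in those 8. Relative to these levels, the distal corner of 3L-3R stood out less than in each of the 8 except 2L-3R and 2L-3L. The gap to 2R-3L, with a corner of 1.27 and a level of 1.02, was small and was not tested. The mixed corners of 3L-3R were lower than its like corners and, before the level of the arm pair is taken in, above the mixed corners of the comparison pairs. Contacts were 0.985 times expected between the centromere end of 3L and the distal end of 3R, and 1.19 times between the distal end of 3L and the centromere end of 3R. The mixed corners were at 0.787 and 0.808 in 2L-3R, 0.851 and 0.799 in 2L-3L, and 0.767 and 0.794 in 2L-2R. Relative to the level of the whole arm pair, the 0.985 of 3L-3R was below these values and the 1.19 was among them.

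Within the distal corner of 3L-3R the contacts were densest in the outermost bins. In the last 1 Mb of both arms 3L-3R contacts were 2.58 times expected (1423 di-tags), against 1.69 times from 1 to 3 Mb of the ends (3545 di-tags). The last 0.2 Mb held 57 di-tags against 8.36 expected, a ratio of 6.82 (interval 5.16 to 8.83). Without the last 0.2 Mb the distal corner of 3L-3R was at 1.76 times expected.

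Of the 10 highest step pairs of 3L-3R, 9 lay within 5 Mb of the centromere on 3L and 2 Mb on 3R. The highest joined 3L from 22540001 to 23540000 with the first 1 Mb of 3R, where 1937 di-tags were 3.41 times expected (interval 3.26 to 3.57). The first 1 Mb of 3R also took 2.77 times expected with the step at 2 to 3 Mb of 3L, 2.61 at 0 to 1 Mb, 2.41 at 3 to 4 Mb and 2.32 at 4 to 5 Mb. From 1 to 2 Mb of 3R the values were 2.65 with the step at 2 to 3 Mb of 3L, 2.48 at 1 to 2 Mb, 2.43 at 3 to 4 Mb and 2.31 at 4 to 5 Mb.

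The tenth lay at the opposite end of the map. It joined the outermost step of 3L, from 1 to 540000, with that of 3R, from 27000001 to 27900000, where 582 di-tags were 3.04 times expected (interval 2.79 to 3.29).

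The 5 lowest step pairs joined the inner part of 3L with the outer part of 3R. The outermost step of 3R was at 0.817 times expected with the first 1 Mb of 3L (196 di-tags, interval 0.707 to 0.940), 0.838 with 1 to 2 Mb, 0.905 with 6 to 7 Mb and 0.918 with 5 to 6 Mb. The fifth, at 0.924, joined the first 1 Mb of 3L with 18 to 19 Mb of 3R (interval 0.823 to 1.03). These were among the 13 step pairs of 3L-3R below 1.

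Averaged over all partners on the other arm, contacts fell along 3R and varied less along 3L. Steps of 3R lay between 1.62 and 1.66 times expected over the first 9 Mb and between 1.27 and 1.29 from 22 to 28 Mb. Steps of 3L lay between 1.45 and 1.56 from 1 to 20 Mb at 1.32 in the first 1 Mb and at 1.42 to 1.43 beyond 22 Mb. Low values stood at 20 to 22 Mb of 3L, with 1.34 and 1.26, and at 18 to 20 Mb of 3R, with 1.27 and 1.25.

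These 4 steps hold bins that met other chromosomes in bin pairs of 10 or more di-tags, which were left out of the totals while their neighbours were kept. With every such step pair left out, the values were 1.39 and 1.33 at 20 to 22 Mb of 3L and 1.32 and 1.30 at 18 to 20 Mb of 3R.

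The bin pairs with the most di-tags lay at the distal ends. The highest, with 7 di-tags against 0.409 expected, joined 3L from 640001 to 650000 with 3R from 27880001 to 27890000. The same bin of 3R held 6 di-tags with 3L from 160001 to 170000, against 0.154 expected, and 6 with 3L from 630001 to 640000, against 0.477 expected. The 3L bins that start at 630001 and 640001 had totals of 4.44 and 3.81 times the median of 3L, which the expected counts take in.

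Around each of these 3 bin pairs, within 5 bins on either side and without its own row and column, contacts were also above expected. They came to 37 di-tags against 9.56 expected around the highest pair, 19 against 3.25 around that at 160001 of 3L and 31 against 9.21 around that at 630001. The surroundings of the first and the last overlap. All 3 pairs lie in the last 1 Mb of both arms, where contacts as a whole were 2.58 times expected. The ratios of the surroundings were 3.87 (interval 2.73 to 5.33), 5.85 (interval 3.52 to 9.13) and 3.36 (interval 2.29 to 4.78) in the same order. The last of these intervals takes in 2.58.

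The 5 bin pairs with 5 di-tags tied for the places left in the list of 5. Of them, 3 joined 3L from 630001 to 640000 with bins of 3R at 18880001, 19140001 and 19150001, against 0.528, 1.40 and 1.41 expected. The 3R bins at 19140001 and 19150001 had totals of 5.95 and 5.99 times the median of 3R. Another joined 3L from 4480001 to 4490000 with 3R from 6980001 to 6990000. The fifth joined 3L from 16660001 to 16670000 with 3R from 8180001 to 8190000, at 7.87 and 8.18 Mb from the centromere-side ends, the one among the 8 highest bin pairs whose distances differed by under 1 Mb. Around it 11 di-tags were found against 6.05 expected (interval of the ratio 0.907 to 3.25), an excess not detectable at this depth.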

How the data were processed

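The authors aligned paired-end reads of Kc167 Hi-C libraries to release 5 of the genome with HiCUP, pooled 2 replicates and deposited, for each pair of 10 kb bins, a raw count of di-tags and a normalised signal made with GOTHiC. The submitters' processing notes name Bowtie2 2.2.6 and dm3. Segments called with HiCseg were not used here. The raw map held 34287983 di-tags in 8265968 bin pairs, and replicates could not be compared.

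Bins with a raw total above 0 were kept and bin pairs with a count of 10 or more left out. Bin factors were fitted so that the product of factors reproduced each bin's total with arms of other chromosomes. The observed count, or in an alternative the deposited signal, was divided by the expected sum in steps of 1 Mb from the centromere-side end. Intervals are exact Poisson intervals, or for the equal-distance ratio intervals on the log scale, at 95%, and leave out the error of the factors. The method was tested on simulated maps. Values were computed in Python 3.11.15 with pandas 2.3.3, numpy 2.4.6 and scipy 1.17.1, and plots were drawn with matplotlib 3.10.9.

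Regions named are the step pairs of 3L-3R at equal distance, the 10 highest and 5 lowest step pairs with at least 50 expected di-tags, and the 5 bin pairs with the highest counts, extended to ties. The arm pairs, regions and lists were chosen with earlier results of these data known. The 2L-2R pair, the comparison within arms, the 5 Mb blocks, the parts of the distal corner and the surroundings of bin pairs were added after values were seen. Alternatives changed the values used, the totals, the limit on counts, the step and the offsets set against the line of equal distances.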

Additional observations from a re-analysis of the deposited data

How the results depend on the processing

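The 3L-3R level stayed above 1 under 8 alternatives, at 1.13 in the deposited normalised signal, 1.18 with totals over all other arms, 1.77 with the plain product of totals, 1.47 with bin pairs of 10 or more di-tags kept, 1.46 with those of 5 or more left out and 1.45 without step pairs holding a bin pair of 10 or more. The corner at the centromere, 2.50 in 3L-3R, was 1.92 with totals over all other arms, 3.01 with the plain product and 2.45 without those step pairs. In 2L-3L that corner, 1.41, was 2.67 in the normalised signal, above the 2.48 of 3L-3R. The distal corner, 1.82 in 3L-3R, was 1.69 in the normalised signal, 1.54 with totals over all other arms and 2.19 with the plain product. The plain product raised the corners of pairs on different chromosomes as well. The corner at the centromere went from 1.29 to 1.51 in 2L-3R and from 1.41 to 1.66 in 2L-3L. Their distal corners went from 1.11 to 1.30 and from 1.02 to 1.20. No level of such a pair is given for that setting, so the 1.77 of 3L-3R has no value to be set against.

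The equal-distance ratio of 3L-3R, 1.09, was 1.01 in the normalised signal, 1.07 with steps of 2 Mb, 1.07 with 3 Mb at the arm ends left out, 1.04 against offsets of 2 to 6 Mb, 1.23 against 10 to 20 Mb, 1.01 from the distal ends and 1.18 with row and column effects fitted within the arm pair. That of 2L-3R was 0.966 in the normalised signal, 1.06 against 10 to 20 Mb, 0.977 from the distal ends and 1.06 with row and column effects. That of 2L-3L turned below 1 in the normalised signal, at 0.881, and was 1.12, 1.05 and 1.12 under the other 3 settings. The 3L-3R ratio stayed above that of 2L-3R under 15 of 15 alternatives, and above that of 2L-3L under 14 of 15, the exception being distances from the distal ends, with 0.957 times the 2L-3L ratio. All alternatives reuse the same pooled map, so they are not independent, and the normalised signal has no interval. Against offsets of 2 to 6 Mb the intervals overlapped, at 1.03 to 1.06 in 3L-3R and 1.01 to 1.05 in 2L-3L.

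One alternative was added after the data were seen, the normalised signal without bins whose total was under 0.25 of the arm median. It gave a 3L-3R level of 1.18, corners of 2.70 and 1.76, and equal-distance ratios of 1.03 in 3L-3R, 0.976 in 2L-3R and 0.928 in 2L-3L, again below 1. Pairs with such a low bin held 0.563% of the 3L-3R di-tags and 5.11% of their normalised signal. The cause of the other differences was not tested. Because the replicates were pooled, none could be left out and no paired analysis was possible because the columns carry no replicate. With 0.0792 di-tags per bin pair, single bin pairs between the arms carried little information.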

Other observations

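The assembled heterochromatin scaffolds of the arms, 3LHet and 3RHet, met the opposite arm of chromosome 3 more often than they met other chromosomes. Relative to the mean of 2L, 2R and X, 3LHet contacts with 3R were 1.34 times expected (23365 di-tags), against 1.06 with 2L and 0.983 with 2R. For 3RHet, contacts with 3L were 1.44 times expected (18871 di-tags), against 1.05 with 2L and 0.985 with 2R. Contacts of the scaffolds were highest at the inner end of each arm. In the first 2 Mb, 3LHet contacts with 3R were 2.21 times expected, against 1.91 with 2L and 1.68 with 2R, and 3RHet contacts with 3L were 4.56 times, against 1.56 with 2L and 1.44 with 2R. Beyond 20 Mb from the centromere-side end 3LHet contacts were 1.03 times expected with 3R, against 0.782 with 2L, 0.729 with 2R and 0.833 with X, and 3RHet contacts were 1.02 times with 3L, against 0.780 with 2L, 0.749 with 2R and 0.892 with X, so contacts with the opposite arm were above those with other chromosomes there too. Contacts with the arm of the same name were higher still, at 3.36 times expected for 3LHet with 3L and 2.25 times for 3RHet with 3R. The scaffolds shared 4884 di-tags with each other. Their order and distance from the arms were not used here, and scaffold bins were given no factor of their own.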
